A study of Mus musculus with 19 samples.

Results

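The mRNA of 7 GABA-A receptor subunits was followed through 3 brain regions of mice with and without the spinocerebellar ataxia 17 (SCA17) mutation. The members are *Gabra2*, *Gabra3*, *Gabra4*, *Gabra5*, *Gabrb1*, *Gabrb2* and *Gabrg1*, a set chosen with earlier results of these data known. They were matched by gene name, and all 7 were found among the 41128 genes of the count table. Other GABA-A receptor subunit genes of the table, among them *Gabra6* and *Gabrd*, served for comparison. SCA17 is caused by an expanded polyglutamine stretch in TBP, the TATA-binding protein. The SCA17 knock-in (KI) mice carry the Tbp-105Q allele in the germline, obtained by crossing floxed mice with EIIa-Cre mice and then breeding the progeny with WT mice. They were compared with wild-type (WT) littermates. All mice were C57BL/6 and 3 months old, and the labels name no treatment that differed between groups. The cerebellum (CB) gave 3 WT and 4 KI libraries, and the striatum (STR) and prefrontal cortex (PFC) gave 3 of each, 19 libraries in all. The sex of the mice is not given in the labels, and the study used both sexes. Counts of *Xist* exceeded those of Y-linked genes in 2 WT and 1 KI libraries of STR, and likewise of PFC. The reverse held in 1 WT and 2 KI libraries of each. In CB *Xist* was the higher in 2 WT and 2 KI libraries. The labels give 3 to 4 mice for each genotype but do not tie libraries of different regions to one mouse, and p values measure the spread between these libraries.

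GABA-A receptors are pentameric chloride channels opened by GABA, the main inhibitory transmitter of the brain. A typical receptor combines alpha and beta subunits with a gamma or delta subunit. The alpha subunit sets much of the drug sensitivity and the place of the receptor at or outside the synapse, and neurons of different regions use different alpha subunits. Cerebellar granule cells are known for the alpha6 subunit, encoded by *Gabra6*, whereas alpha4 and alpha5 are best known from forebrain neurons. *Gabra4* encodes a subunit that often pairs with delta in extrasynaptic receptors, which carry the tonic inhibitory current.

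Libraries held between 10639110 and 17431284 counts, with a median of 15082703. Levels are given as CPM, the counts of a gene divided by the library's total and put on a common scale, adjusted by the trimmed mean of M values (TMM), and levels of different genes are compared only as RPKM, which is CPM divided by the summed exon length in kilobases. Marker genes followed the labelled regions. The summed CPM of 6 granule cell markers, *Gabra6* among them, was 3335 or more in each CB library and at most 108 elsewhere, and that of 8 striatal projection neuron markers was 5099 or more in each STR library and at most 1059 elsewhere. The summed CPM of 8 cortical excitatory markers was 1309 or more in each PFC library and at most 706 elsewhere. A few libraries stood apart from their group. PFC WT replicate 3 had a summed CPM of 437 over 5 olfactory bulb markers, against at most 36.6 in the other PFC libraries. STR WT replicate 3 had a summed CPM of 270.0 over the cortical excitatory markers. The other STR WT libraries had 67.4 or less, and the STR KI libraries had 102 to 199. CB WT replicate 1 and CB KI replicate 3 had 1937 and 4884 summed CPM over 5 choroid plexus markers, against at most 18.4 in the other CB libraries. Results below are given with these 4 libraries left out where that changed a call or a direction. *Tbp* itself was between 32.0 and 62.0 CPM, and its log2 fold change in KI mice was -0.14 in CB, -0.12 in STR and -0.15 in PFC, none called. These counts do not separate the alleles and so do not check the labels.

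The members lie in 4 places of the genome (GRCm38, GENCODE M21). *Gabrg1* (chr5:70751047-70842617, minus strand), *Gabra2* (chr5:70957597-71095849, minus strand), *Gabra4* (chr5:71569749-71658308, minus strand) and *Gabrb1* (chr5:71658113-72149037, plus strand) form a cluster on chromosome 5. *Gabra4* and *Gabrb1* start head to head and share 46 exonic bases, and the library kit did not keep the strand, so reads on those bases cannot be assigned to either. *Gabra5* (chr7:57407672-57510059, minus strand) shares 148 exonic bases with the antisense gene *Gm9962*. *Gabrb2* (chr11:42419757-42629028, plus strand) is on chromosome 11, and *Gabra3* (chrX:72432681-72656848, minus strand) is on the X chromosome.

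All 7 members had at least 1 promoter window in the RefSeq table (GRCm38.p6, 250 bases before to 50 after a start), 11 windows in all. As the mutated protein binds the TATA box, windows were searched on both strands for TATAAA, and for GGGCGG, the core of GC boxes. TATAAA was present in 13.6% and GGGCGG in 35.7% of the 32851 windows of 300 bases in the table. Among the members, TATAAA was found in the first window of *Gabrb2*, at position -30 from the start, and in both overlapping windows of *Gabra3*. The *Gabra3* matches, at -123 and -235, are the same site seen from both starts, with TATAAA on the strand opposite to the gene. GGGCGG was found in the windows of *Gabra2* and *Gabra4*, with 2 matches each, and in the first window of *Gabrb2*. The 3 windows printed here belong to *Gabra4* and *Gabrb2*, the members with the widest STR contrast between genotypes, and to *Gabrb1*, which starts beside *Gabra4*. Capitals mark the motif matches on either strand, and each is written 5′ to 3′ on the strand of its gene.
Gabra4, chr5:71658259-71658558, minus strand: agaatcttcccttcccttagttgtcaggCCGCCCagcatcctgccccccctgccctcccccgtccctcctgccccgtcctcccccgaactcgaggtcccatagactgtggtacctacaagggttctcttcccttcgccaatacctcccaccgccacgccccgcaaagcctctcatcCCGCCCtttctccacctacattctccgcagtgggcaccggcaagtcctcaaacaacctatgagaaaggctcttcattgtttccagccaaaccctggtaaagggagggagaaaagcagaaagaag
Gabrb1, first window, chr5:71657671-71657970, plus strand: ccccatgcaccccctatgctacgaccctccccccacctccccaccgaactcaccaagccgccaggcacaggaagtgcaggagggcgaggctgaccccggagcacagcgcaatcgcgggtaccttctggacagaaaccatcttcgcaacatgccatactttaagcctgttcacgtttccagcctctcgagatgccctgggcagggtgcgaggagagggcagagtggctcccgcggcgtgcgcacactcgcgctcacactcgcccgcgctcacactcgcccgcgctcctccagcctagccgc
Gabrb2, first window, chr11:42420190-42420489, plus strand: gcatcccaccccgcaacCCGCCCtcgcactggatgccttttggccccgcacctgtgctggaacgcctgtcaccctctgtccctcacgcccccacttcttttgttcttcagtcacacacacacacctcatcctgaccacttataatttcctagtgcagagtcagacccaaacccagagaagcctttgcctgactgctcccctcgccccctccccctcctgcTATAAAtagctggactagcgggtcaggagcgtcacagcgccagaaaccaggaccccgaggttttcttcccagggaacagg
*Gabrb2* alone of these holds both motifs. *Gabra4* holds only GC box cores and the *Gabrb1* window holds neither.

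The first comparison was between regions in WT mice. In bulk tissue, fewer cells of a type and less RNA per cell cannot be told apart. All 7 members differed between CB and STR in edgeR (quasi-likelihood fit, p values adjusted after Benjamini and Hochberg over 16841 genes), where 56.5% of all genes were called. Of the members 6 were lower in CB, as were 28.7% of all genes, and 1 was higher, as were 27.8%. Between CB and PFC all 7 again differed, against 52.0% of all genes, with 6 lower in CB (26.9% of all genes) and 1 higher (25.1%). Between STR and PFC 4 of 7 differed, against 30.5% of all genes. Among the members only *Gabrb2*, which encodes a beta subunit common in synaptic receptors, was higher in CB than in both forebrain regions.

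*Gabra4* was the member most abundant in STR. Its WT level was 388, 399.5 and 365 CPM in STR, 191, 185 and 157 CPM in PFC, and 67.7, 56.9 and 56.2 CPM in CB. The 3 regions did not overlap, and the order STR, PFC, CB held in each library. The log2 difference was 1.11 (95% CI 0.83 to 1.40, adjusted p = 9.68e-06) for STR over PFC, and CB was lower than STR by -2.67 (SE 0.143, adjusted p = 1.05e-10, edgeR).

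*Gabrb2* had the reverse order. Its WT level was 174, 184 and 187 CPM in CB, 82.2, 97.4 and 90.2 CPM in PFC, and 55.0, 55.0 and 61.8 CPM in STR. Again no library crossed into another region's range. CB exceeded STR by 1.66 (SE 0.107, adjusted p = 1.01e-09) and PFC by 1.01 (SE 0.105, adjusted p = 4.41e-07) on the log2 scale, and STR was below PFC by -0.65 (SE 0.106, adjusted p = 1.69e-04, edgeR).

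*Gabra5* and *Gabra3* were highest in PFC. *Gabra5*, whose product is known from extrasynaptic receptors of cortex and hippocampus, was 103, 77.7 and 123 CPM in PFC and 39.4, 25.7 and 48.7 CPM in STR. In CB it was 0.578, 0.393 and 0.971 CPM, from 6 to 12 counts a library, and the mean PFC level was 156 times the mean CB level. *Gabra3* was 109, 93.5 and 107 CPM in PFC, 17.9, 19.8 and 35.3 CPM in STR and 13.9, 9.37 and 10.8 CPM in CB. The highest STR value was that of replicate 3, the library with more cortical markers. Without the 4 libraries that stood apart, the log2 difference of *Gabra3* between STR and PFC was -2.42, against -2.08 with them, and that of *Gabra5* was -1.47 against -1.42. All 3 regional differences of both genes passed the test.

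*Gabra2*, *Gabrb1* and *Gabrg1* were lower in CB and did not pass the test between STR and PFC. *Gabra2*, an alpha subunit of forebrain synapses, was 140.4, 146 and 68.1 CPM in STR, 157, 110.1 and 57.8 CPM in PFC and 78.1, 49.1 and 54.3 CPM in CB, so replicate 3 of both forebrain regions fell within the CB range. Its CB to STR difference was -0.96 (SE 0.311, adjusted p = 0.0142, edgeR), and that to PFC was -0.84 (SE 0.310, adjusted p = 0.0317, edgeR). Both calls of *Gabra2* were lost when any 1 of 4 libraries was left out. These were CB WT replicate 2, CB WT replicate 3 and either of the first 2 replicates of the forebrain region compared, with a highest adjusted p of 0.0617 against STR and 0.228 against PFC. Without the 4 libraries that stood apart the *Gabra2* differences were -1.47 and -1.37 and both were called.

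*Gabrb1* was 53.6 to 55.6 CPM in CB, 88.2 to 109 CPM in STR and 93.8 to 117 CPM in PFC, and CB was lower than STR by -0.83 (SE 0.101) and than PFC by -0.94 (SE 0.101). *Gabrg1*, a gamma subunit known from Bergmann glia and a limited set of neurons, was 27.2 to 29.6 CPM in CB, 36.1 to 41.7 CPM in STR and 36.8 to 46.0 CPM in PFC. Its CB to STR difference of -0.41 had an adjusted p of 0.0484 by edgeR and was no longer called after removal of any single CB or STR WT library (adjusted p 0.0530 to 0.125). Its CB to PFC difference of -0.51 (adjusted p = 0.0178, edgeR) was lost without CB WT replicate 3 (0.0587) or PFC WT replicate 3 (0.0737). For STR against PFC the 95% intervals of the log2 difference ran from -0.52 to 0.77 for *Gabra2*, from -0.32 to 0.10 for *Gabrb1* and from -0.46 to 0.25 for *Gabrg1*.

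**Figure D1:**
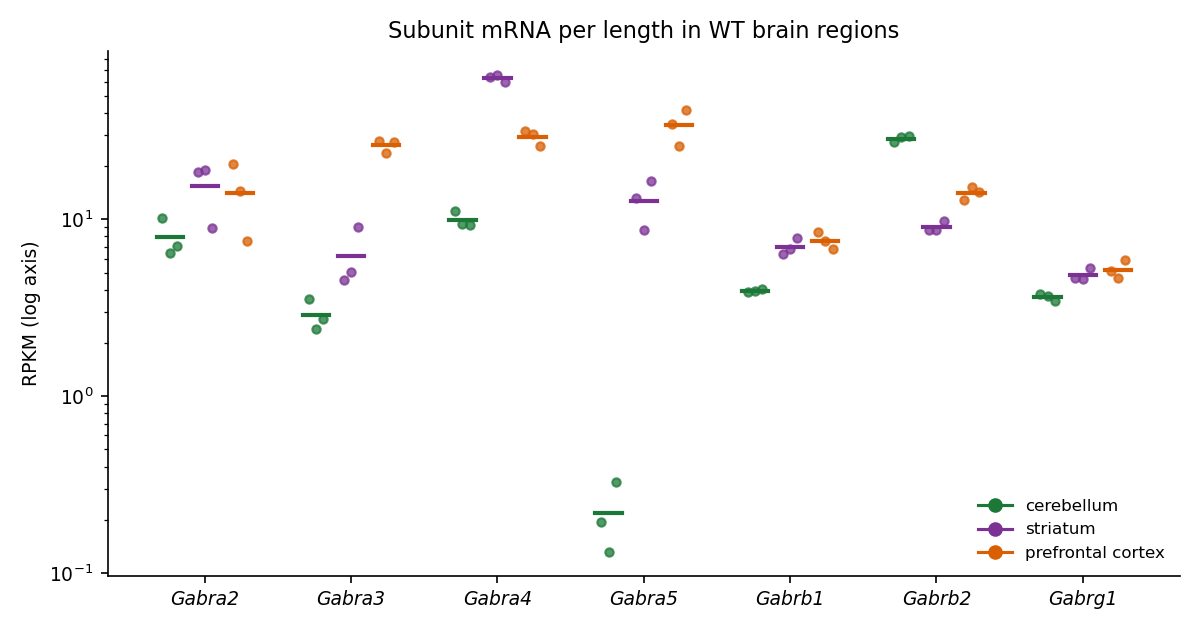
RPKM of the 7 members in WT libraries on a log axis, with a point for each library (n = 3 a region) and a bar for the mean. *Gabra5* has a mean of 0.218 in CB against 34.0 in PFC, *Gabra4* reaches 63.1 in STR, and *Gabrb2* is the only member whose highest mean is in CB.

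Per length, *Gabra4* led the members in STR with 63.1 ± 2.90 RPKM (SD, n = 3), followed by *Gabra2* with 15.5 ± 5.68. *Gabrb2* led in CB with 28.5 ± 1.11 RPKM, ahead of *Gabra4* with 9.91 ± 1.06. In PFC, *Gabra5* at 34.0 ± 7.64, *Gabra4* at 29.2 ± 2.92 and *Gabra3* at 26.2 ± 2.10 RPKM came first, and the gap from *Gabra5* to *Gabra4* was within the SD of *Gabra5*. *Gabrg1* was the lowest member in STR, at 4.84 ± 0.397 RPKM, and in PFC. With the longest transcript as length, *Gabra4* and not *Gabra5* led in PFC, and *Gabra3* was the lowest in STR and *Gabrb1* in PFC.

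The second comparison was KI against WT within each region. None of the 7 members passed the adjusted threshold of 0.05 in any region by edgeR or by DESeq2. The share of all genes called was 0.831% in CB, 0.582% in STR and 0.107% in PFC by edgeR, and 2.01%, 1.22% and 0.330% by DESeq2. At an unadjusted p under 0.05, 2 of 7 members passed in STR, where 8.12% of all genes did, and 0 of 7 passed in CB (10.1%) and PFC (5.93%). The median log2 fold change of the 7 members was 0.10 in CB, 0.17 in STR and -0.02 in PFC, beside medians of 0.01, -0.01 and 0.00 over all genes.

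In STR the 2 members at unadjusted p under 0.05 were *Gabra4* and *Gabrb2*, in opposite directions. *Gabra4* was 265, 347 and 280.0 CPM in KI mice against 388, 399.5 and 365 CPM in WT mice. Each KI library lay below each WT library. The log2 fold change was -0.37 (95% CI -0.65 to -0.09, adjusted p = 0.389, edgeR), and the adjusted p ranged from 0.143 to 0.817 over the 13 alternative fits.

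*Gabrb2* was 82.9, 70.4 and 64.4 CPM in KI STR against 55.0, 55.0 and 61.8 CPM in WT STR. Each KI library lay above each WT library, the nearest pair being KI replicate 3 and WT replicate 3. The log2 fold change was 0.34 (95% CI 0.12 to 0.56, adjusted p = 0.262, edgeR), and the adjusted p ranged from 0.158 to 0.743 over 13 alternatives. Groups without overlap were found for 2 of 7 members in STR and for 14.1% of all genes, for 0 of 7 in CB (12.3%) and for 0 of 7 in PFC (8.69%).

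Markers of striatal projection neurons, where *Gabra4* is known to be expressed, were lower in KI STR, as *Gabra4* was, while *Gabrb2* was higher. Their summed CPM was 5099 to 7389 in KI STR and 9448 to 10832 in WT STR. Of the 8 markers 7 had a log2 fold change below 0, with a median of -0.67, and 0 were called. The 8 cortical excitatory markers were at 102 to 199 summed CPM in KI STR and at 46.4 to 270.0 in WT STR, 7 of 8 with a log2 fold change above 0 and 0 called. No marker of either list was at 0 in either group. The part of either marker list in the *Gabra4* and *Gabrb2* values was not tested. STR WT replicates 1 and 2 were at 67.4 and 46.4 summed CPM over the cortical markers, below each KI library. Without STR WT replicate 3 and the other libraries that stood apart, the log2 fold change was -0.40 for *Gabra4* (adjusted p = 0.379) and 0.40 for *Gabrb2* (adjusted p = 0.265, edgeR). That set thus differs more between genotypes in cortical markers than the full set.

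**Figure D2:**
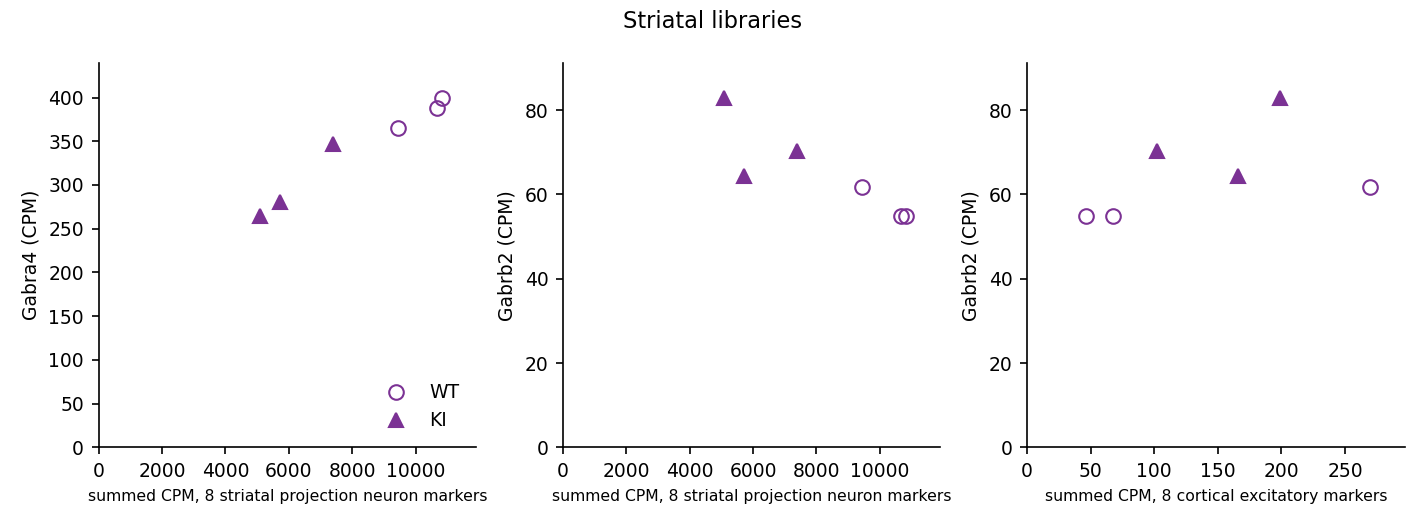
CPM of *Gabra4* (left) and *Gabrb2* (middle) in the 6 STR libraries against the summed CPM of 8 striatal projection neuron markers, and of *Gabrb2* against that of 8 cortical excitatory markers (right), with WT as open circles and KI as filled triangles. KI libraries sit at 5099 to 7389 and WT libraries at 9448 to 10832 on the striatal axis, with *Gabra4* lower and *Gabrb2* higher in KI.

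The other 5 members overlapped between genotypes in STR, with log2 fold changes from -0.05 for *Gabrb1* to 0.33 for *Gabra3*. *Gabra3* was 35.8, 24.5 and 31.3 CPM in KI STR, and only WT replicate 3 at 35.3 CPM reached those values. Its log2 fold change was 0.70 without WT replicate 3 and 0.15 without WT replicate 1, the other single removals lying between. *Gabra2* had a log2 fold change of 0.20, which was -0.07 without WT replicate 3.

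In CB, 6 of 7 members had a log2 fold change above 0, none with unadjusted p under 0.05. *Gabra2* was 91.1, 69.1, 90.9 and 94.7 CPM in KI and 78.1, 49.1 and 54.3 CPM in WT mice, with 1 KI library below the highest WT library. Its log2 fold change was 0.51 (95% CI -0.10 to 1.13, adjusted p = 0.606, edgeR), and 0.72 (adjusted p = 0.142) without the 4 libraries that stood apart. *Gabra5* had the widest interval, from -0.25 to 2.49, at 0.507, 3.27, 0.616 and 1.09 CPM in KI CB. Its log2 fold change of 1.12 was 0.21 without KI replicate 2, the library at 3.27 CPM, and 1.49 without WT replicate 3. *Gabra4*, the member below 0, was 62.5, 55.2, 50.1 and 49.0 CPM in KI CB with a log2 fold change of -0.15. The intervals of *Gabrb1* (-0.15 to 0.25) and *Gabrb2* (-0.09 to 0.32) were the narrowest in CB. Purkinje markers were lower in KI CB, at 4173 to 5963 summed CPM over 7 markers against 6662 to 6841 in WT, with 1 of 7 called (*Pcp2*). Microglia markers were higher, at 137 to 201 against 94.2 to 96.1 summed CPM over 6 markers, 4 of them called. Forebrain interneuron markers had a log2 fold change above 0 for 6 of 8, with a median of 1.04 and 0 called, and a summed CPM of 155 to 225 in KI and 169 to 195 in WT CB. *Dlx2* was at 0 in both groups and *Dlx5* in WT. KI replicate 2 had the highest mean log2 CPM of the CB libraries over these markers (1.24) and over the striatal projection neuron markers (2.84). The part of these lists in the member values was not tested.

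In PFC, 3 members had a log2 fold change above 0 and 4 below. *Gabra2* was 175, 128 and 128 CPM in KI and 157, 110.1 and 57.8 CPM in WT mice, a log2 fold change of 0.41 (95% CI -0.23 to 1.06) that was 0.11 without PFC WT replicate 3. *Gabrb2* was 69.9, 91.3 and 80.1 CPM in KI PFC, a log2 fold change of -0.16 (95% CI -0.38 to 0.06), opposite in sign to STR. *Gabra5* was 98.9, 72.5 and 79.0 CPM, with a log2 fold change of -0.28. *Gabrb1* was 135, 109 and 109 CPM with a log2 fold change of 0.17. The values of *Gabra3*, *Gabra4* and *Gabrg1* were -0.02, 0.09 and -0.13. Markers of other cells were also compared between the PFC groups. Striatal projection neuron markers had a log2 fold change above 0 for 8 of 8 (median 0.64, 0 called), at 708, 1059 and 181 summed CPM in KI and 336, 274 and 821 in WT PFC. Forebrain interneuron markers had one below 0 for 7 of 8 (median -0.39, 0 called), at 514 to 643 summed CPM in KI and 691 to 878 in WT PFC, without overlap. The 4 tested olfactory bulb markers had values below 0 (median -4.63), with 0 called by edgeR and 3 by DESeq2, and WT replicate 3 held most of the summed CPM of the list. No striatal, interneuron or olfactory bulb marker was at 0 in either PFC group. The part of these lists in the member values was not tested.

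**Figure D3:**
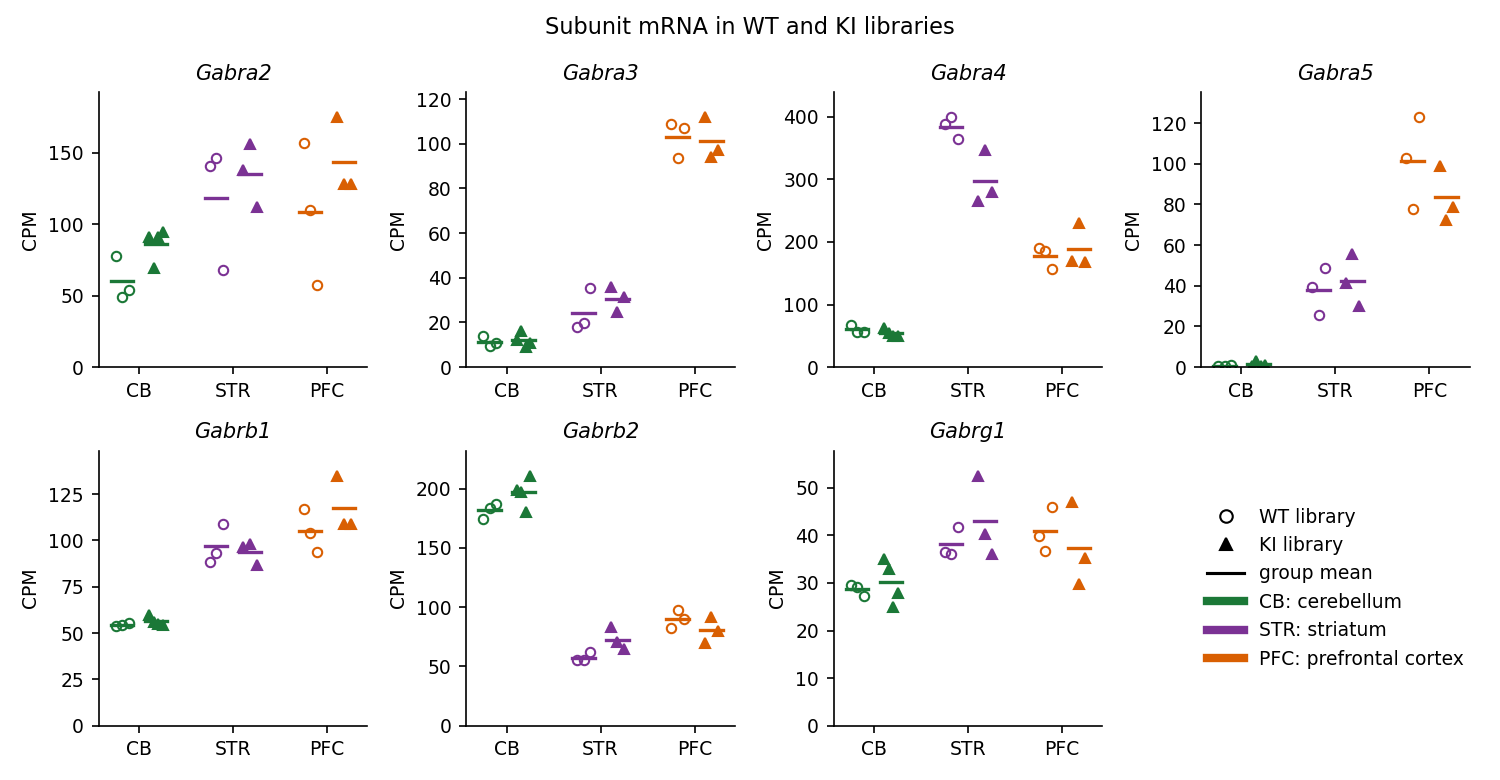
CPM of each member in every library, WT as open circles and KI as filled triangles, with a bar for each group mean (n = 3, or 4 for CB KI), y axes from 0. WT and KI separate without overlap only in STR, for *Gabra4* and *Gabrb2*.

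**Figure D4:**
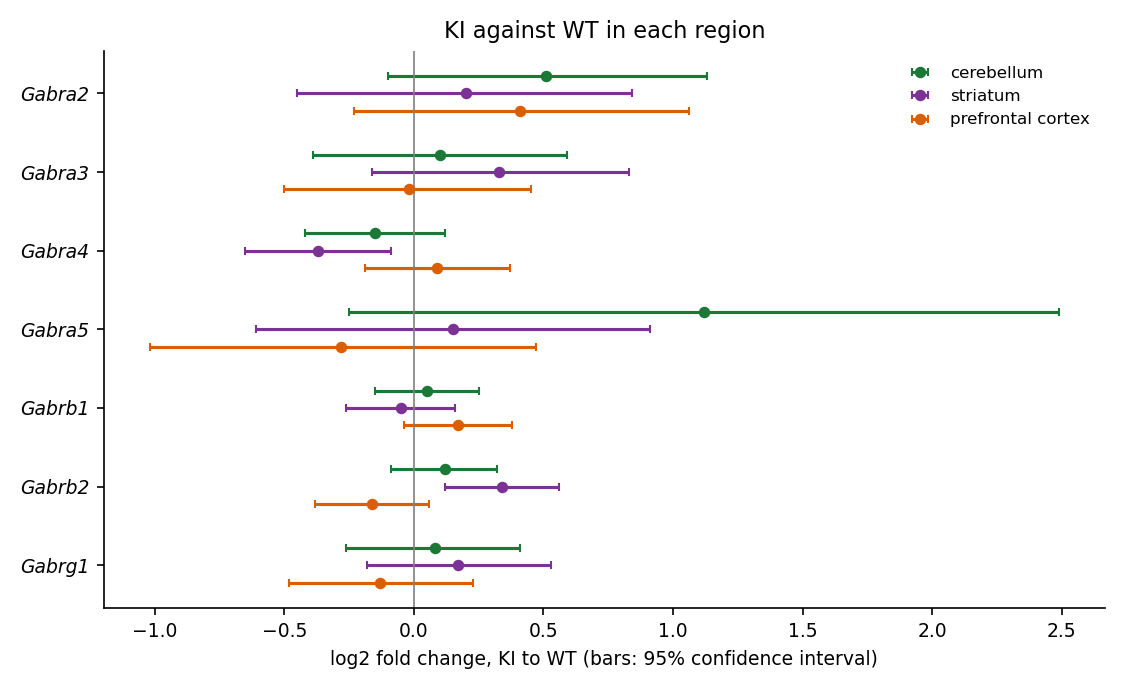
Log2 fold change of KI to WT with its 95% confidence interval from edgeR for the 7 members in the 3 regions. The unadjusted intervals of *Gabra4* (-0.65 to -0.09) and *Gabrb2* (0.12 to 0.56) in STR are the ones that leave out 0.

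Whether the KI effect differed from region to region was tested with an interaction term. None of the 7 members passed for any of the 3 pairs of regions, where edgeR called 0.0119% (CB minus STR), 0.0178% (CB minus PFC) and 0% (STR minus PFC) of all genes. DESeq2 called 0.338%, 0.194% and 0.0780% of all genes and 0 members. At an unadjusted p under 0.05, 0, 0 and 2 of 7 members passed, against 6.69%, 6.12% and 4.41% of all genes. The STR effect of *Gabrb2* exceeded its PFC effect by 0.50 (95% CI 0.19 to 0.82, adjusted p = 0.975, edgeR). For *Gabra4* the same difference was -0.46 (95% CI -0.86 to -0.06, adjusted p = 1.000, edgeR).

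*Gabra6*, *Gabrd*, *Gabrg3*, *Gabrq* and *Gabrr2* were also compared. *Gabra6* was 1264, 1198 and 1298 CPM in WT CB and at most 2.30 CPM in the other regions. In WT mice *Gabrd* was also called higher in CB by edgeR, by 0.61 over STR and 1.72 over PFC on the log2 scale. *Gabrg3* and *Gabrq* were called lower in CB than in both, and *Gabrr2* was not called against either. *Gabrd*, which encodes the delta subunit of extrasynaptic receptors, was 149, 205 and 175 CPM in KI STR and 238, 252 and 246 CPM in WT STR. Its groups did not overlap, with a log2 fold change of -0.48 (95% CI -0.83 to -0.12, adjusted p = 0.365, edgeR). In CB the *Gabrd* value was -0.25, again without overlap, and in PFC it was -0.38 with overlap. In STR, *Gabrg3* had a log2 fold change of -0.26 without overlap. There *Gabrq* had 1.36 (95% CI -0.30 to 3.02) and *Gabrr2* had 0.73 (95% CI -0.41 to 1.88), both with overlap. *Gabrq* rested on 77, 11 and 5 counts in KI STR and on 15, 6 and 13 in WT STR. *Gabrr2* rested on 14 to 73 counts in KI STR and on 13 to 40 in WT STR. Between KI and WT mice none of these 5 genes was called in any region by edgeR. DESeq2 called *Gabra6* in STR, where it was 0.135 to 0.440 CPM in KI and 0.541 to 2.30 CPM in WT mice. That call rested on only 2 to 6 counts a library in KI STR and 7 to 31 in WT STR.

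Genes that make, move or anchor the GABA system were taken as 4 lists with 37 genes in all, each of which were tested. In no region was any called in KI mice, by edgeR or DESeq2, and 6 in CB, 3 in STR and 4 in PFC had an unadjusted p under 0.05, beside 10.1%, 8.12% and 5.93% of all genes. For GABA synthesis, transport and breakdown, *Gad1*, a GABA-synthesising enzyme, had a log2 fold change of -0.71 in PFC (adjusted p = 0.637). The summed forebrain interneuron markers were also lower in each KI than in any WT library of PFC. Their highest sum, 878 CPM, was that of PFC WT replicate 3, the library with olfactory bulb markers. The part of either marker list in the *Gad1* value was not tested. Among 16 scaffold, assembly and trafficking genes, *Nlgn2*, an adhesion protein of inhibitory synapses, had a value of -0.47 in CB (adjusted p = 0.211). Of the 6 GABA-B receptor genes, *Gabbr1* had a value of -0.26 in STR (adjusted p = 0.528). Of the 7 chloride transport and carbonic anhydrase genes, *Slc12a5*, the neuronal chloride extruder KCC2, had a value of -0.26 in STR (adjusted p = 0.488, all edgeR). The genes named here all had values below 0, but not all lists leaned that way. In CB, 4 of 8 synthesis, 11 of 16 scaffold, 3 of 6 GABA-B and 2 of 7 chloride genes had values above 0. In STR the numbers above 0 were 6, 6, 4 and 1. In WT mice 22 of 37 differed between CB and STR, 20 between CB and PFC and 18 between STR and PFC, beside 56.5%, 52.0% and 30.5% of all genes. The scaffold gene *Gphn*, encoding gephyrin, was higher in CB than in STR by 0.33 and than in PFC by 0.59 on the log2 scale, and *Shisa7*, a receptor auxiliary protein gene, was lower in CB by -3.81 and -3.50.

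Members differed in how tightly replicates agreed. The standard deviation of log2 CPM within groups was 0.435 for *Gabra2*, above that of 98.7% of the 2006 genes of like level, and 0.637 for *Gabra5*, above 96.3% of 1899 genes of like level. It was 0.122 for *Gabrb1* and 0.131 for *Gabrb2*, above 48.7% and 58.5% of genes of like level. For *Gabra2* the widest deviations from a group mean were -0.79 in PFC WT replicate 3 and -0.71 in STR WT replicate 3 on the log2 scale. These libraries were taken as paired by their number, so the deviations may not be separate. For *Gabra5* the widest were 1.52 and -0.89, in CB KI replicates 2 and 1, at 59 and 9 counts. Level here is the mean over all libraries, and *Gabra5* in CB was far below it. The part of low counts in its rank was not tested.

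The genes with the pattern most like each member were ranked by Pearson correlation of log2 CPM over all 19 libraries, a description in which region dominates and libraries of one region share their cell make-up. For *Gabra4* they were *Gcnt2*, *Ptpn5* and *Atp2b1* (r = 0.994, 0.993 and 0.993). *Gabrb2* was most like *Fgf9*, *Nfkbie* and *Ank1* (0.985, 0.981 and 0.981), and *Gabra4* and *Gabrb2* ran opposite to each other at -0.971. *Gabra3* came with *Atxn7l3*, *Xylt1* and *Gm2824* (0.990, 0.988 and 0.987), and *Gabra5* with *Lhx2*, *Hpcal4* and *Pak6* (0.990, 0.989 and 0.986). *Gabrb1* came with *Rhbdd2*, *Arpc3* and *Rgl1* (0.989, 0.985 and 0.985). Lower values of r were found for *Gabrg1*, among them 0.910 for *Bco2* and 0.901 for *Adgrg1*, and for *Gabra2*, at 0.911 for *Rps2-ps10*, 0.873 for *Vps52* and 0.867 for *Sh2b1*. *Rps2-ps10* is named as a pseudogene, and its reads may be shared with copies of its parent gene.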

How the data were processed

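RNA from 19 samples was sequenced by the authors with the SMART-Seq v4 and Nextera XT kits. The submitters' processing notes name bcl2fastq 2.17.1.14, STAR 2.5.2b, HTSeq, DESeq2 1.10.1 and build GRCm38.p3, and the study's methods name Cufflinks and Cuffdiff. The deposited tables hold counts of reads per gene and, as a signal, the same counts divided by 1 size factor per library. From the counts, genes were filtered by filterByExpr over the 6 groups (16841 kept), scaled by TMM, and fitted over all 19 libraries in edgeR 4.0.16 under R 4.3.3 (13 residual degrees of freedom). P values were adjusted by Benjamini-Hochberg over all tested genes at 0.05. Log2 CPM used a prior count of 2. DESeq2 1.42.0, other scaling, no filter, each region alone, replicate blocks, a sex covariate and removal of each library were alternatives. Scripts were tested on simulated data. Intervals cover these libraries' spread.

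Members and lists were chosen with earlier results of these data known. Named genes were the members, other subunits, pathway genes by count, the 3 most alike genes a member, and markers beside a result. Some genes that this rule would name are not reported here. The labels' replicate numbers were checked for pairing. Same-numbered STR and PFC libraries of one genotype deviated together in 6 of 6 pairs (r = 0.233 to 0.368), and their *Xist* to Y-linked balance agreed in 6 of 6, so the numbers were taken to pair these regions. CB libraries did not follow (r = -0.104 to 0.163). The main fit treated all libraries as separate, also for STR against PFC, and the pairing entered only in the alternatives with a replicate block.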

Additional observations from a re-analysis of the deposited data

Results flagged for a closer look

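*Gabra2* in CB KI replicate 2 was at 69.1 CPM, below 90.9 to 94.7 CPM in the other 3 CB KI libraries, and its gap of 0.851 of the group's range exceeded Dixon's 95% critical value for 4 samples. Only CB KI has 4 libraries, so 7 member groups were tested, and chance flags about 1 in 20 groups.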

How the results depend on the processing

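No member was called in KI mice in any region, or in the differences of the KI effect between regions, under any alternative run. Directions of some uncalled values changed. With the replicate block across regions, the *Gabra2* KI effect in CB minus PFC was -0.03, and with the sex covariate *Gabra5* in STR was -0.05. Removal of the 4 libraries that stood apart, chosen after seeing the data, gave -0.08 for *Gabra2* and 0.05 for *Gabrb1* in STR and 0.00 for *Gabra3* in PFC. The cause was not tested.

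Over removal of single libraries, log2 fold changes of KI to WT ran from -0.08 to 0.28 for *Gabra3* and from 0.00 to 0.16 for *Gabrg1* in CB. In STR they ran from -0.07 to 0.38 for *Gabra2*, from -0.09 to 0.37 for *Gabra5* and from -0.11 to 0.05 for *Gabrb1*. In PFC they ran from -0.10 to 0.02 for *Gabra3*, from -0.09 to 0.17 for *Gabra4* and from -0.33 to 0.00 for *Gabrg1*. The *Gabra2* difference between WT STR and PFC ran from -0.18 to 0.49. KI effects in CB minus STR ran from 0.00 to 0.16 for *Gabrb1* and from -0.21 to 0.08 for *Gabrg1*, in CB minus PFC from -0.26 to 0.41 for *Gabra2* and from -0.05 to 0.30 for *Gabra3*, and in STR minus PFC from -0.58 to 0.09 for *Gabra2*.

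The WT difference of *Gabrg1* between CB and STR was not called without the filter (-0.40, adjusted p = 0.0634) or with the sex covariate (-0.42, adjusted p = 0.0533, edgeR). Without the 4 libraries it was -0.37 (adjusted p = 0.155), and -0.45 (adjusted p = 0.0941) between CB and PFC.

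Over all genes, edgeR called 140 in CB, 98 in STR and 18 in PFC for KI against WT, and DESeq2 330, 213 and 56. With each region alone edgeR called 46 in STR and 0 in PFC, and with the replicate block within regions 9 in PFC. Removal of single libraries gave 73 to 151 in CB, 36 to 121 in STR and 5 to 16 in PFC. For differences of the KI effect, edgeR called 2, 3 and 0 genes and DESeq2 52, 33 and 12, and without the 4 libraries edgeR called 19, 9 and 0. The replicate block changed no call of a member. *Gabra5* in CB rested on 6 to 59 counts a library, and groups of 3 or 4 libraries limit all intervals.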
